A study of Mus musculus with 35 samples.

Results

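Spinal cord microglia of rNLS8 mice were compared between late and early disease, 7 libraries against 7, out of 35 libraries in the series. The libraries of each group were taken by their labelled phenotype. rNLS8 mice, labelled (+/+), carry NEFH-tTa and tetO-hTDP43, so that human TDP-43 is made under control of the neurofilament heavy chain promoter, in neurons, once doxycycline is taken out of the diet. The labels give 1 strain for all animals, mixed C57BL/6J X C3HeJ F1, and every mouse was kept on doxycycline until 8 to 12 weeks of age. The early mice (3 males, 4 females) had then spent 2 weeks off doxycycline and the late mice (4 males, 3 females) 6 weeks. Late mice had therefore also aged longer after the diet change, and disease stage, transgene exposure and age cannot be told apart between these groups. Levels in 14 controls are given as background: 6 rNLS8 mice that stayed on doxycycline, and 8 wild-type (-/-) littermates, of which 4 had been off doxycycline for 2 weeks, 1 for 6 weeks, and 3 for 6 weeks with a return to the diet. Cells were sorted from whole spinal cord with antibodies to CD11b and CD45, and the design text counts the libraries as mice. It counts 8 early mice, of which 7 libraries are analysed here.

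Microglia are the resident macrophages of the central nervous system. In the resting cord they carry a homeostatic programme of sensing receptors such as P2ry12, Cx3cr1 and Tmem119, whose upkeep needs Csf1r and TGF-beta signals. Around injured or degenerating neurons microglia are known to take on a state termed disease-associated, with more of the lipid carrier Apoe, the secreted factors Spp1 and Csf1, the lysosomal inhibitor Cst7 and receptors such as Axl, Clec7a and Itgax. Interferon-inducible and antigen presentation genes form further programmes that can be raised in the same cells.

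The 14 libraries held 15.1 to 20.0 M counts each, with a count in 15788 to 17347 genes. The sorted cells carried transcripts of both proteins of the gate. Itgam, which encodes CD11b, stood at 1643 ± 219 counts-per-million (CPM, SD, n = 7) in late and 1570 ± 137 in early libraries. Ptprc, which encodes CD45, stood at 552 ± 70.6 CPM in late and 414 ± 67.6 CPM in early libraries. It did not pass the edgeR test used below. By DESeq2, which passed 2.21% of all genes as higher, it did, at a log2 difference of 0.41 ± 0.12 (SE, adjusted p = 0.0382). Whether the sorted cells differed between stages was not tested. The labelled sex matched Xist and Ddx3y in 14 of 14 late and early libraries and in 12 of the 14 controls. The control library labelled replicate 7 carries a female label and had 0 CPM of Xist and 46.8 CPM of Ddx3y, and that labelled replicate 8 carries a male label and had 155 CPM of Xist and 0 CPM of Ddx3y. Each library title begins with a date code, and codes 1019, 1102 and 1130 occur in both stages. Code 1130 has 3 late males and 2 early females, so that stage and sex coincide there, and the test below carried both date code and sex as terms. LateDisease replicate 6 (date code 1130) stood apart before any comparison: on the first principal component, which held 25.1% of the variance, it scored 133.8 while the other 13 libraries lay between -24.9 and 27.4. Its median correlation with the other late libraries was 0.872, against 0.927 to 0.940 for each of those. Values without it are given beside several of the results below.

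Late disease differed from early disease at 24 of 12411 genes tested (0.193%), by edgeR's quasi-likelihood test with date code and sex as terms and a Benjamini-Hochberg adjusted p under 0.05. Of these, 21 genes rose in late disease (0.169%) and 3 fell (0.0242%). The risen genes included the secreted factors Spp1, Apoe, Csf1 and Fn1, the protease inhibitor Cst7, the MHC class I genes H2-Q6 and H2-Q7, and the sialic acid receptors Cd22 and Siglecf. Of the 21, 16 rose by at least 2-fold, and log2 differences ran from 0.65 to 3.58. At an unadjusted p under 0.05 the same test gave 1824 genes (14.7%), of which 1128 (9.09%) were higher and 696 (5.61%) lower in late disease. The median log2 difference over all genes tested was 0.02, with quartiles of -0.15 and 0.25. All 7 late libraries lay above all 7 early ones at 48 genes (0.387%) and below them at 48 genes (0.387%). Of the 24 genes, 8 were named because they passed the test and lie outside the rule that chose the other names: Naip6, Siglecf, H2-Q6, Nf1, Fgr, Myo5a, Gas2l3 and C130089K02Rik.

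The calls sat close to the threshold. Cst7 and Slamf9 had an adjusted p of 0.0179, and the other 22 genes had one between 0.048 and 0.0489. The count also moved when 1 library at a time was left out. Without late replicates 1 to 7 in turn it was 43, 1, 3, 12, 6, 92 and 15 genes, and without early replicates 1, 3, 4, 5, 6, 7 and 8 it was 1, 9, 10, 0, 0, 0 and 4 genes. The edgeR fits with 0 genes still had 1267, 1398 and 1658 genes at an unadjusted p under 0.05. Without late replicate 6 the count was 92 (69 higher, or 0.55% of the 12549 genes tested there, and 23 lower), and those 92 held all 24 genes. Of the 14 fits without 1 library, 10 kept the call of Cst7 and of Slamf9, and no other of the 24 genes kept its call in more than 5. DESeq2 with the same terms passed 391 genes (274 higher, or 2.21%, and 117 lower), again with all 24 among them. Without the sex term 4 genes passed, and with neither sex nor date 0 genes passed, with 2058 at an unadjusted p under 0.05. With the share of TPM outside the deposited genes as a further term (3.71 ± 0.77% in late, 4.35 ± 1.06% in early libraries, SD) 1 gene passed, with 1407 at an unadjusted p under 0.05. Each of the 24 genes kept its direction in every one of these fits. The 24 were chosen by a fit on these same libraries, so that agreement is in part set by the choice.

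Of the genes of the disease-associated state, 4 rose in late disease (Cst7, Spp1, Apoe and Csf1) and 0 fell by edgeR's adjusted p, against 0.169% of all genes that rose. All 30 members were tested, and 21 had an unadjusted p under 0.05, all of them higher, against 9.09% of all genes. All 30 had a log2 difference above 0, where 53% of all genes tested did, and the median was 0.93, against 0.02 over all genes. The mean log2 CPM of the list ran from 7.07 to 8.30 in late libraries and from 6.19 to 7.36 in early ones, so that the groups overlapped. Late replicate 1, of date code 1019, was the lowest late library and late replicate 6 the next, at 7.27. The controls ran from 5.91 to 7.08. Without late replicate 6, 8 members rose, against 0.55% of all genes, with a median of 1.00. The median was 0.36 in date codes 1019 and 1102 alone, and within code 1019 the mean of the list was lower in late disease, by a log2 difference of -0.08.

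Cst7 encodes cystatin F, an inhibitor of lysosomal cysteine proteases (ENSMUSG00000068129.5, mm10 chr2:150570415-150578944). Its CPM was 24.99 at the lowest, 38.9 at the median and 76.8 at the highest in late libraries, and 2.06, 7.199 and 17.6 in early ones. All 7 late libraries lay above all 7 early ones and above all 14 controls, which ended at 20.7 CPM. The log2 difference, late minus early, was 2.66 ± 0.33 (SE, adjusted p = 0.0179), a 6.32-fold difference in the fit. Leaving out single libraries gave 2.44 to 2.92, with the call kept in 10 of 14 of those fits.

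Spp1 encodes osteopontin, a secreted phosphoprotein that binds integrins and CD44 (ENSMUSG00000029304.12, chr5:104435118-104441050). Its CPM was 224, 401 and 1026 (lowest, median, highest) in late libraries and 8.14, 49.6 and 153 in early ones. No late library overlapped the early ones or the controls, whose highest stood at 115 CPM. The log2 difference was 3.58 ± 0.58 (SE, adjusted p = 0.048), and the call was kept in 3 of the 14 fits without 1 library. Apoe, the lipid carrier (ENSMUSG00000002985.13, chr7:19696109-19699188), had 695, 2480 and 11135 CPM in late libraries and 62.8, 345 and 521 in early ones. Every late library again exceeded every early one, but 1 wild-type control off doxycycline for 2 weeks reached 1115 CPM, above the lowest late library. The log2 difference of Apoe was 3.47 ± 0.58 (adjusted p = 0.048). The highest Apoe value came from late replicate 6, and without that library the next highest was 3274 CPM and the log2 difference 3.10 ± 0.39 (adjusted p = 0.00842). The call of Apoe was kept in 2 of the 14 fits without 1 library.

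Csf1, the ligand of the receptor Csf1r on which microglia depend (ENSMUSG00000014599.8, chr3:107741048-107760469), had 54.0, 113 and 140 CPM in late libraries and 24.9, 30.0 and 72.6 in early ones. The groups overlapped, since late replicate 1 at 54.0 CPM lay below early replicate 3 at 72.6, and both have date code 1019. All 7 late libraries lay above the highest control, at 36.0 CPM, and the early mean of 40.2 ± 17.0 lay between the control mean of 18.5 ± 8.04 and the late mean of 105 ± 29.4 CPM. The log2 difference was 1.59 ± 0.25 (adjusted p = 0.048), with the call kept in 4 of the 14 fits without 1 library. Its receptor Csf1r had a log2 difference of -0.05 ± 0.09, with means of 16101 CPM in late and 16013 CPM in early libraries.

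The other members of the list did not pass the adjusted test. Axl, a phagocytic receptor of the TAM family, came closest, with 210, 366 and 561 CPM in late and 31.1, 110 and 226 CPM in early libraries. Late replicate 6 alone overlapped the early libraries. The log2 difference of Axl was 2.04 ± 0.38 (adjusted p = 0.0568), and it passed without late replicate 6 at 2.08 ± 0.37 (adjusted p = 0.0339). Lgals3, which encodes galectin-3, had a log2 difference of 1.97 ± 0.44 (adjusted p = 0.112). Clec7a, a pattern recognition receptor for beta-glucan, had one of 2.33 ± 0.63 (adjusted p = 0.166), and the integrin gene Itgax, which encodes CD11c, one of 1.78 ± 0.54 (adjusted p = 0.187). Of the 7 late libraries, 5 lay above every early one for Clec7a and 4 each for Itgax and Lgals3, and late replicate 6 was the lowest late library for Clec7a and Itgax. The lipase gene Lpl had 1.17 ± 0.57 (adjusted p = 0.368), and Gpnmb, a lysosomal membrane glycoprotein, had 3.40 ± 1.01 (adjusted p = 0.182) at low levels of at most 6.62 CPM. The growth factor Igf1 was also low, with means of 5.37 CPM in late and 0.94 CPM in early libraries and a log2 difference of 3.13 ± 0.85 (adjusted p = 0.166). The receptor Trem2 and its adaptor Tyrobp had log2 differences of 0.03 ± 0.18 (adjusted p = 0.951) and 0.21 ± 0.13 (adjusted p = 0.454). The sign of Trem2 changed in 9 of 18 other processing settings.

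**Figure D1:**
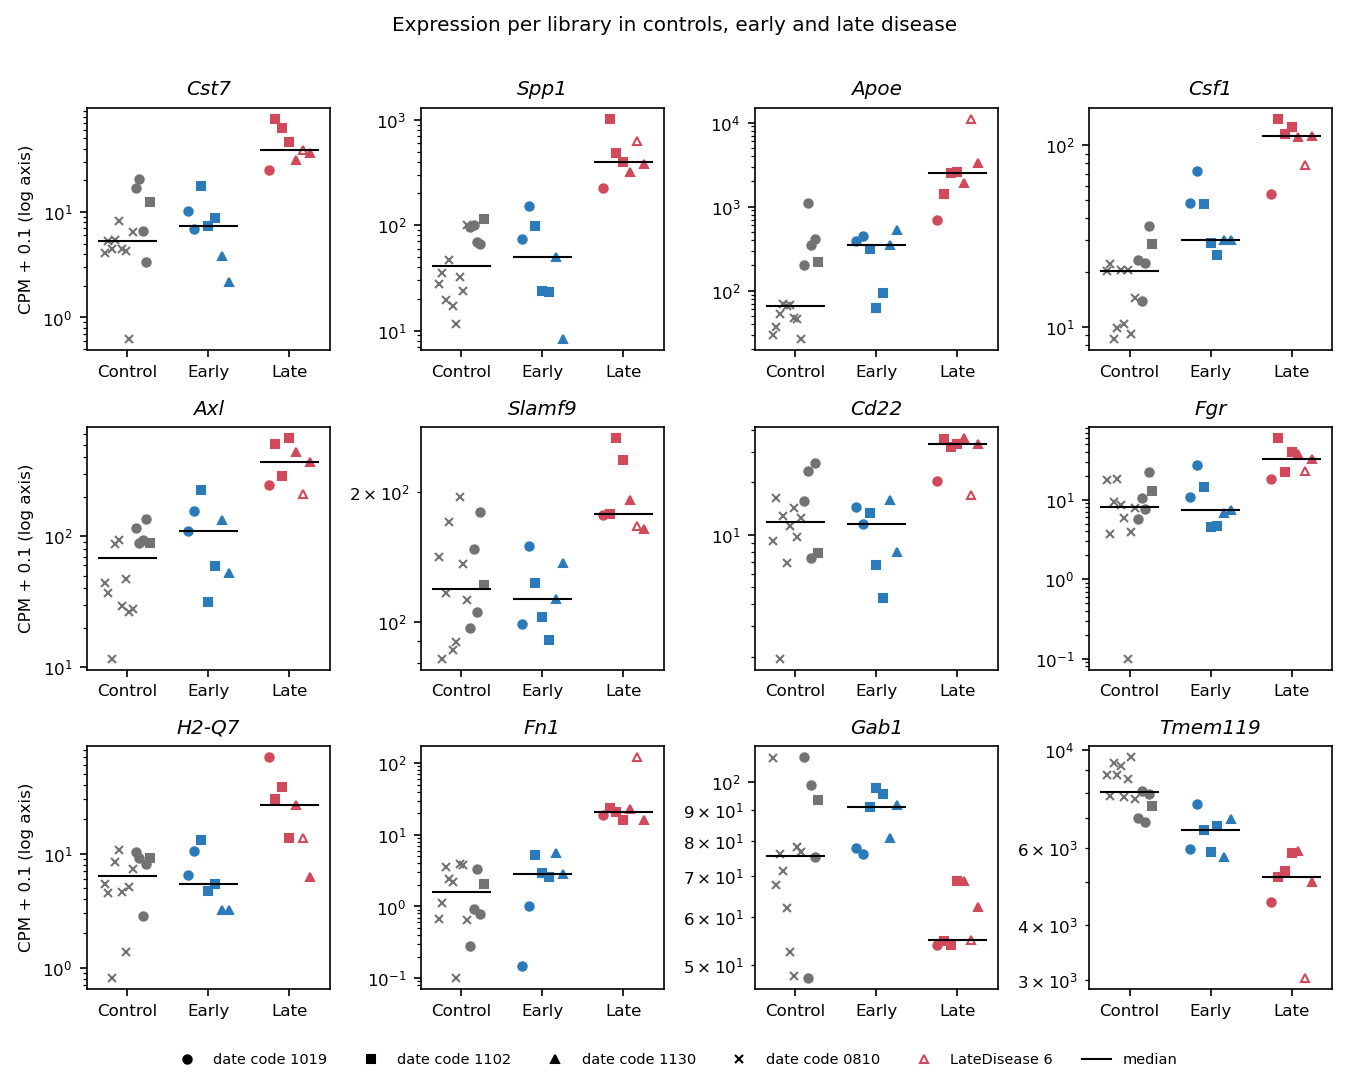
CPM + 0.1 on a log axis for 12 genes in 14 controls (grey), 7 early (blue) and 7 late (red) libraries, with marker shape giving the date code, the open marker late replicate 6 and the bar the group median. Spp1 and Cst7 lie higher in every late library than in any early or control library, Gab1 lies lower in every late than in any early library, and Axl and Tmem119 did not pass the test.

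The upstream sequences of some genes that rose, and of the interferon-inducible chemokine Cxcl10, show what motifs these starts carry. Each is the 250 bases before the first start that RefSeq lists (GRCm38.p6, which is mm10), 5′ to 3′ on the gene's strand. Motif matches on either strand are in capitals: the interferon element GAAANNGAA, the PU.1 motif GAGGAAGT, the AP-1 motif TGANTCA and the NF-kB motif. The E-box CACGTG was also searched. Csf1 is from chr3:107760470-107760719 (minus strand), Spp1 from chr5:104434861-104435110 (plus), Apoe from chr7:19699189-19699438 (minus), H2-Q7 from chr17:35438905-35439154 (plus) and Cxcl10 from chr5:92348890-92349139 (minus).
Csf1: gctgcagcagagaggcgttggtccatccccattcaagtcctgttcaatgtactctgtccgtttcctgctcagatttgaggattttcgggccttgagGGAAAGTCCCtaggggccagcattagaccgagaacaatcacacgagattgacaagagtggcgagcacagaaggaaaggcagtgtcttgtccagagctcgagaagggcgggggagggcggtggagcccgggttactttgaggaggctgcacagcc
Spp1: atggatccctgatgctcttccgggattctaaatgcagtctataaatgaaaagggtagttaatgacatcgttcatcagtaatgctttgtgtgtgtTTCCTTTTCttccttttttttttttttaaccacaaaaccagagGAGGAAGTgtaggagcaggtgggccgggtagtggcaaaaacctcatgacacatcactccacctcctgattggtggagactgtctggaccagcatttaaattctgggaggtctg
Apoe: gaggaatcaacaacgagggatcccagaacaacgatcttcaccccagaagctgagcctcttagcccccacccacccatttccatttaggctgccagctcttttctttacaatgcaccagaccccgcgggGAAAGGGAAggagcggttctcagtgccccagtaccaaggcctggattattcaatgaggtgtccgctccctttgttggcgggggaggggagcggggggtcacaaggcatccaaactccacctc
H2-Q7: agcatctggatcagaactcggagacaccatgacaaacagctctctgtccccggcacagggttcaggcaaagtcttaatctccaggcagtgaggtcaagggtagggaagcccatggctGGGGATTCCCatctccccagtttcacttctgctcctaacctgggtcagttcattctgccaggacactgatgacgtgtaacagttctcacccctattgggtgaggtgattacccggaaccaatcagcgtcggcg
Cxcl10: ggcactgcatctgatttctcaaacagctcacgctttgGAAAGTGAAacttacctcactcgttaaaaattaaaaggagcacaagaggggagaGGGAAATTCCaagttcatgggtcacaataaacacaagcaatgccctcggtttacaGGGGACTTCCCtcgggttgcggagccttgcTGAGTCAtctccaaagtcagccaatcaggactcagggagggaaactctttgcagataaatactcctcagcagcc

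Csf1 held 1 NF-kB match that began 154 bases before the start, and H2-Q7 held 1 at 133 bases. Spp1 held an interferon element at 156 bases and a PU.1 match at 113 bases, and Apoe an interferon element at 122 bases. Cxcl10 held an interferon element at 213 bases, an AP-1 match at 74 bases and 3 NF-kB matches, 2 of them overlapping. Over all 27025 RefSeq promoters of the same length, the interferon element was found in 7.16%, NF-kB in 7.01%, AP-1 in 6.87%, the E-box in 6.05% and PU.1 in 2.44%. RefSeq entries matched 19 of the 24 genes past the test, and of those 19, 3 held an NF-kB match, 2 an interferon element, 2 a PU.1 match, 2 an E-box and 0 an AP-1 match. In the interferon response list 11 of 21 matched promoters (52.4%) held the interferon element, and in the antigen presentation list 6 of 15 (40%) held an NF-kB match. Every sequence printed above is from a gene with a match. Among risen genes not printed, Cst7, Ubr4, Mical1, Cd22, Naip6, Siglecf, Nf1, Fgr, Myo5a and Gas2l3 held no match to any motif searched. A match describes these letters in this window and no binding was measured.

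Of 22 listed antigen presentation genes 21 were tested, 1 rose (H2-Q7), 0 fell, and 15 had an unadjusted p under 0.05 in the higher direction, where 0.169% of all genes rose and 9.09% were higher at that unadjusted p. All 21 had a log2 difference above 0, against 53% of all genes, with a median of 0.62. The mean log2 CPM of the list ran from 5.89 to 6.73 in late and from 5.06 to 6.17 in early libraries. Late replicates 6 and 7 were the lowest late libraries and overlapped early replicate 4, the highest early one. Without late replicate 6, 4 members rose, against 0.55% of all genes.

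H2-Q7 and its neighbour H2-Q6 encode non-classical MHC class I molecules of the Qa region and are near-identical copies, so that the authors' read assignment can split reads between them (chr17:35439155-35443773 and chr17:35424850-35430055). H2-Q7 had 6.14, 26.6 and 69.4 CPM in late libraries and 3.11, 5.34 and 13.04 in early ones. Late replicate 7 lay among the early libraries, and the other 6 late libraries lay above them. The log2 difference was 2.31 ± 0.39 for H2-Q7 and 2.44 ± 0.42 for H2-Q6 (adjusted p = 0.048 for each). H2-Q6 had 11.8, 39.3 and 91.1 CPM in late and 4.02, 7.80 and 26.0 CPM in early libraries. Among members that did not pass, the classical class I gene H2-D1 had a log2 difference of 1.25 ± 0.25 (adjusted p = 0.0703), H2-K1 one of 0.92 ± 0.20 (adjusted p = 0.112) and the light chain B2m one of 0.58 ± 0.18 (adjusted p = 0.197). Cd74, the invariant chain of MHC class II, had means of 254 ± 102 CPM in late and 110 ± 77.6 CPM in early libraries and a log2 difference of 1.51 ± 0.35 (adjusted p = 0.127). H2-Aa had 0.84, 15.6 and 33.9 CPM in late and 0.53, 3.23 and 7.11 CPM in early libraries, with 6 late libraries above every early one. Late replicate 6 was the lowest, and the log2 difference of H2-Aa was 2.41 ± 0.57 (adjusted p = 0.139) with it and 2.54 ± 0.40 (adjusted p = 0.0205) without it.

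In the interferon response list, 30 of 30 genes were tested and 0 passed the adjusted edgeR test, while 18 had an unadjusted p under 0.05, all higher, and 28 had a log2 difference above 0. The median was 0.78. Over all genes 9.09% were higher at that unadjusted p, and 53% had a log2 difference above 0. DESeq2 passed 7 of the 30, all higher, against 2.21% of all genes. The list's mean log2 CPM ran from 4.15 to 5.21 in late and from 2.86 to 4.96 in early libraries, and early replicate 3, at 4.96, lay above 4 of the 7 late libraries. Ifi207, a DNA sensor of the p200 family, had all 7 late libraries above all 7 early ones, with means of 21.3 and 4.44 CPM and a log2 difference of 2.30 ± 0.54 (adjusted p = 0.13). Ifi207 passed as higher when late replicate 6 was left out, and no other member of the list passed, where 0.55% of all genes rose in that fit. The chemokine Cxcl10 had 7.63, 18.7 and 20.8 CPM in late and 2.32, 3.81 and 18.7 CPM in early libraries, where early replicate 3 set the highest value, and a log2 difference of 1.76 ± 0.46 (adjusted p = 0.159). The antiviral membrane protein gene Ifitm3 had a log2 difference of 1.37 ± 0.42 (adjusted p = 0.194) and the ubiquitin-like modifier gene Isg15 one of 0.69 ± 0.38 (adjusted p = 0.422).

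Of 23 tested inflammatory cytokine and NF-kB genes 0 passed the adjusted edgeR test, 9 had an unadjusted p under 0.05 and were higher, and DESeq2 passed 5. Here and for the complement list below, the shares over all genes were 9.09% higher at that p and 2.21% higher by DESeq2. The chemokine Ccl5 had a log2 difference of 2.58 ± 0.57 (adjusted p = 0.112), with means of 8.84 and 1.51 CPM. Tnf had one of 2.04 ± 0.61 (adjusted p = 0.182), the receptor gene Tlr2 one of 0.70 ± 0.16 (adjusted p = 0.112), Ccl3 one of 1.51 ± 0.56 (adjusted p = 0.253) and Ccl4 one of 0.95 ± 0.55 (adjusted p = 0.439). The complement list had 13 tested genes, 0 past the adjusted edgeR test, 4 at an unadjusted p under 0.05 and 2 past DESeq2. C3, the central complement component, had 8.40, 9.03 and 11.3 CPM in late libraries and 0.17, 0.58 and 9.28 CPM in early ones. A single early library, replicate 4, reached the late range, and the log2 difference was 2.90 ± 0.76 (adjusted p = 0.159). Without that library, the highest early one for C3, it was 4.07, with an adjusted p of 0.000202 by edgeR. Of the 14 fits without 1 library, C3 passed in that 1 only, with an adjusted p of up to 0.426 in the others.

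The remaining risen genes fall into receptors and their kinases, cytoskeletal genes and others. Slamf9, a receptor of the SLAM family (chr1:172475358-172478575), had 163, 177 and 266 CPM in late libraries and 90.6, 112 and 150 CPM in early ones. The groups did not overlap, though controls reached 195 CPM, and the log2 difference was 0.84 ± 0.11 (adjusted p = 0.0179). Cd22, an inhibitory sialic acid receptor (chr7:30865402-30880342), had 16.8, 33.1 and 35.8 CPM in late and 4.24, 11.4 and 15.6 CPM in early libraries. Its groups did not overlap either, with late replicate 6 the lowest late library, and the log2 difference was 1.63 ± 0.27 (adjusted p = 0.048). Siglecf, also a sialic acid receptor, had 116, 145 and 179 CPM in late libraries, all above every control, and 54.6, 79.0 and 189 CPM in early ones. Early replicate 3 held that 189 CPM and lay above all late libraries, and the log2 difference was 1.01 ± 0.17 (adjusted p = 0.048). Fgr, a Src family kinase of myeloid cells, had 18.1, 32.9 and 59.7 CPM in late and 4.47, 7.44 and 27.5 CPM in early libraries. Early replicate 3 again overlapped the late libraries, and the log2 difference was 2.08 ± 0.37 (adjusted p = 0.0489).

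Among cytoskeletal genes, the motor protein gene Myo5a (chr9:75071015-75223688) had 31.9, 37.0 and 52.1 CPM in late and 10.5, 18.3 and 25.1 CPM in early libraries. No late library overlapped the early ones or the controls, and the log2 difference was 1.27 ± 0.23 (adjusted p = 0.0489). Mical1, an oxidase that takes apart actin filaments, rose by a log2 difference of 0.77 ± 0.12, and Gas2l3, which links actin and microtubules, by 1.40 ± 0.25. Fn1, which encodes fibronectin (chr1:71585520-71653200), had 15.8, 20.5 and 120 CPM in late libraries and 0.05, 2.76 and 5.53 CPM in early ones. The groups did not overlap, and the controls ended at 3.85 CPM. The log2 difference of Fn1 was 3.39 ± 0.61 (adjusted p = 0.0489), and without late replicate 6, which held the 120 CPM, it was 3.01 ± 0.49 (adjusted p = 0.0224). Bhlhe40, a helix-loop-helix transcription factor gene, rose by 1.96 ± 0.34, with a late median of 10.6 and an early median of 2.71 CPM.

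The Ras regulator Nf1 and the ubiquitin ligase Ubr4 rose by log2 differences of 0.82 ± 0.14 and 0.65 ± 0.10. Naip6, from a family of inflammasome sensors with close copies in the genome, had 7.37, 11.3 and 47.8 CPM in late libraries and 0.18, 9.95 and 15.7 CPM in early ones, with 2 late libraries above every early one. The 3 early libraries of code 1102 stood at 0.18 to 0.47 CPM, while the other 4 early libraries stood at 9.95 to 15.7 CPM. Such low levels were not particular to that code or stage. The late libraries of code 1102 stood at 9.50 to 16.15 CPM and its 1 control at 0.30 CPM. Control replicates 5 and 6, of a date code without late or early libraries, stood at 0.23 and 0.49 CPM. The log2 difference of Naip6 was 2.67 ± 0.46 (adjusted p = 0.048), with the call kept in 2 of the 14 fits without 1 library. Ildr2, an immunoglobulin-like domain receptor, rose by 1.51 ± 0.24, but its early median of 10.98 CPM lay below every control, which ran from 11.3 to 48.1 CPM, and its late median was 30.6 CPM. The pseudogene Gm42927 rose by 0.90 ± 0.15 and the unclassified transcript C130089K02Rik by 1.13 ± 0.20. For Gm42927, C130089K02Rik, Ubr4, Mical1, Ildr2, Spp1, Cd22, Bhlhe40, Nf1, Myo5a, Fn1, Gab1 and Gm37758 the annotation places another gene over part of the locus, and no source used here states that reads were counted by strand, so reads of overlapping genes cannot be told apart.

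Set against the controls, the late median lay above all 14 controls in 14 of the 21 risen genes. The early median lay within the range of the 14 controls in 20 of the 21, with Ildr2 below it. The early mean lay between the control and late means in 12 of the 21. Among the others, it lay below the control mean for Gm42927 (34.3 against 67.8 CPM), Ubr4 (28.4 against 38.2 CPM) and Ildr2 (16.6 against 32.1 CPM). The late means of these genes were 58.8, 43.1 and 35.1 CPM. All late libraries lay above all controls at 7 genes: Cst7, Spp1, Csf1, Fn1, Myo5a, Mical1 and Siglecf. The 21 genes were chosen for a late level above the early one in these same libraries, so these counts are in part set by that choice. Shares over all genes were not computed for them. Of the controls, 9 have a date code that no late or early library has, so these levels are a description. The single wild-type mouse off doxycycline for 6 weeks lay above all 4 wild-type mice off it for 2 weeks at 4 of the 21 genes, Spp1, Bhlhe40, H2-Q6 and Gas2l3. Its Spp1 level was 115 CPM, against 66.4 to 99.6 CPM in those 4 and at least 224 CPM in late disease. Its Cst7 level was 12.4 CPM, against 3.26 to 20.7 CPM, and its Apoe level 220 CPM, against 204 to 1115 CPM.

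The 3 genes that fell were Gab1, Gm37758 and Akr1e1. Gab1, a docking protein of growth factor receptors (chr8:80764438-80880519), had 53.8, 55.0 and 68.7 CPM in late and 76.0, 91.0 and 97.5 CPM in early libraries. The groups did not overlap, while the controls spanned both, from 47.5 to 110 CPM, and the log2 difference was -0.59 ± 0.09 (adjusted p = 0.048). Gm37758, a transcript of unclassified type (chr9:33160062-33160690), had 7.85, 13.5 and 19.7 CPM in late and 23.99, 29.0 and 42.2 CPM in early libraries, again with no overlap, and a log2 difference of -1.07 ± 0.16 (adjusted p = 0.048). Akr1e1, an aldo-keto reductase gene, had 0.84, 2.84 and 8.26 CPM in late and 0.77, 18.2 and 22.0 CPM in early libraries. Its lowest early library, replicate 3, lay below every late one, and the log2 difference was -2.26 ± 0.40 (adjusted p = 0.0489). The controls spanned both stages for these genes too, from 7.22 to 137 CPM for Gm37758 and from 0 to 26.2 CPM for Akr1e1.

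Homeostatic microglia genes did not pass the test in either direction. Of 32 tested, 0 passed by edgeR, and the median was -0.16. At an unadjusted p under 0.05, 5 were lower and 1 higher, where 9.09% of all genes were higher. Of the 32, 6 had a log2 difference above 0, against 53% of all genes. Without late replicate 6, 9 were lower at an unadjusted p under 0.05, against 7.64% of all genes in that fit and 5.61% with it, and the median was -0.14. DESeq2 passed 1 of the 32, in the higher direction, where it passed 2.21% of all genes. Tmem119, a microglial membrane protein gene, had 3026, 5137 and 5902 CPM in late and 5721, 6564 and 7549 CPM in early libraries. Of the late libraries 5 lay below every early one, and the log2 difference was -0.35 ± 0.14 (adjusted p = 0.281). Selplg, the P-selectin ligand gene, had -0.39 ± 0.13 (adjusted p = 0.224), with 6 late libraries below every early one. P2ry12, an ADP receptor, had 1708, 6093 and 6518 CPM in late and 5705, 7281 and 9241 CPM in early libraries. Late replicate 6 held the 1708 CPM, and the log2 difference was -0.40 ± 0.24 (adjusted p = 0.454) with it and -0.29 ± 0.11 (adjusted p = 0.188) without it. The fractalkine receptor gene Cx3cr1 had -0.36 ± 0.28 (adjusted p = 0.568), and -0.23 without late replicate 6 (adjusted p = 0.157). The identity factor gene Sall1 had -0.17 ± 0.23 (adjusted p = 0.759), and -0.048 without that library (adjusted p = 0.755). Rhob, a small GTPase gene, was the 1 list member with all late libraries below all early ones, and 0 members had all of them above. The share over all genes was 0.387% in each direction. The log2 difference of Rhob was -0.57 ± 0.19 (adjusted p = 0.216). In bulk libraries, fewer cells of a type and less of an RNA per cell cannot be told apart.

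**Figure D2:**
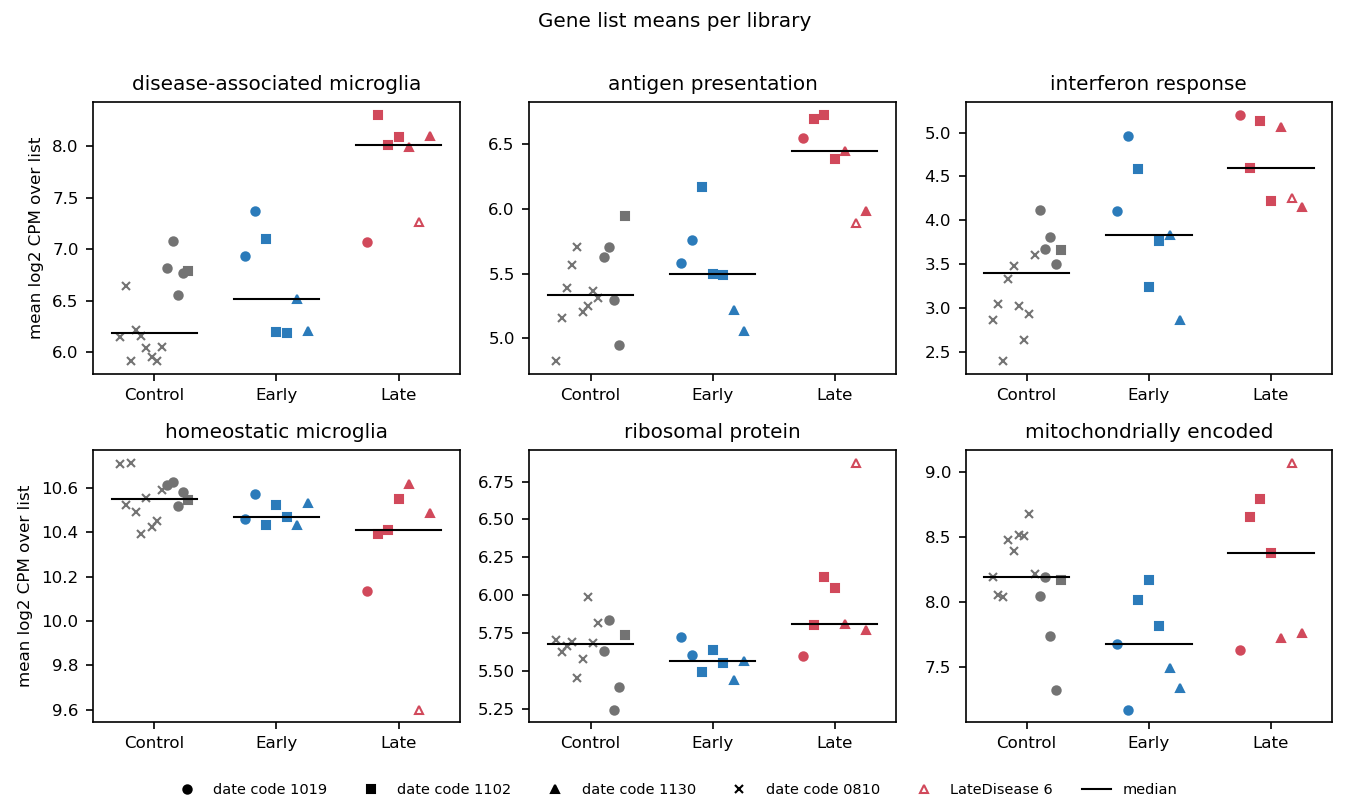
Mean log2 CPM over 6 gene lists in each library of the controls (grey), early (blue) and late (red) groups, with marker shape giving the date code, the open marker late replicate 6 and the bar the group median. The disease-associated and antigen presentation lists are higher in most late libraries, with overlap, and late replicate 6 is the lowest in the homeostatic list at 9.60 and the highest in the ribosomal protein list at 6.88.

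Transcripts of the translation and energy machinery had medians above that of all genes, and none passed the edgeR test. Of 81 ribosomal protein genes 0 passed by edgeR, and the median was 0.45. At an unadjusted p under 0.05, 45 were higher and 1 lower, against 9.09% and 5.61% of all genes. A log2 difference above 0 was found in 79, against 53% of all genes. The mean log2 CPM of this list was 5.60 to 6.12 in the other 6 late libraries, 6.88 in late replicate 6 and 5.44 to 5.72 in early libraries. The controls ran from 5.24 to 5.99. The median was 0.29 without late replicate 6, when 2 members rose, against 0.55% of all genes. DESeq2 on all 14 libraries passed 2 in the higher direction, where it passed 2.21% of all genes. Of 13 mitochondrially encoded genes 0 passed by edgeR and 0 by DESeq2, 10 were higher at an unadjusted p under 0.05, and the median was 0.59, or 0.38 without late replicate 6. The mean log2 CPM of these genes was 8.29 ± 0.58 in late, 7.67 ± 0.36 in early and 8.18 ± 0.35 in control libraries (SD). Late libraries thus lay near the control level, and early libraries below it on average. The complex I gene mt-Nd5 had the smallest p of the 13 genes, with means of 442 CPM in late and 274 CPM in early libraries and a log2 difference of 0.68 ± 0.23 (adjusted p = 0.224). For the 80 nuclear genes of oxidative phosphorylation the median was 0.09, and 0 passed edgeR or DESeq2. At an unadjusted p under 0.05, 3 were higher, a smaller share than the 9.09% of all genes, and 67 had a log2 difference above 0. Without late replicate 6 that median was 0.024, with 54 above 0.

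The lysosome and phagocytosis list had 32 tested genes and 0 past the edgeR test, and its median was 0.28. At an unadjusted p under 0.05, 16 were higher and 1 lower, and DESeq2 passed 4, all higher. Of all genes, 9.09% were higher and 5.61% lower at that p, 2.21% were higher by DESeq2, and 0.169% rose by edgeR. These shares also apply to the lists that follow here. The scavenger receptor gene Msr1 had means of 28.5 and 5.06 CPM and a log2 difference of 2.41 ± 0.60 (adjusted p = 0.148). The cathepsin gene Ctsb had one of 0.55 ± 0.16 (adjusted p = 0.182), and the progranulin gene Grn one of 0.37 ± 0.12 (adjusted p = 0.222). In the lipid efflux and storage list, with 18 tested, Apoe rose, 9 genes including it were higher at an unadjusted p under 0.05, and the median was 0.50. The cholesterol exporter gene Abca1 had 0.63 ± 0.19 (adjusted p = 0.182) and the hydroxylase gene Ch25h 2.40 ± 0.88 (adjusted p = 0.246). Cholesterol synthesis, with 24 tested genes, had a median of 0.05 and 0 past the edgeR test, with 2 lower and 0 higher at an unadjusted p under 0.05. The trophic factor list had 9 tested genes and a median of 0.35, and Csf1 was its 1 risen member. The immediate early and stress list had 25 tested genes, 0 past the edgeR test and a median of 0.40, with 6 higher and 2 lower at an unadjusted p under 0.05. That median was 0.22 without late replicate 6, the library with the highest level of this list, and -0.054 in codes 1019 and 1102 alone. Klf2, a Kruppel-like transcription factor gene of that list, had 8.37, 17.1 and 28.1 CPM in late and 22.5, 36.3 and 98.3 CPM in early libraries. Of the late libraries 5 lay below every early one, and the log2 difference was -1.37 ± 0.35 (adjusted p = 0.157).

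**Figure D3:**
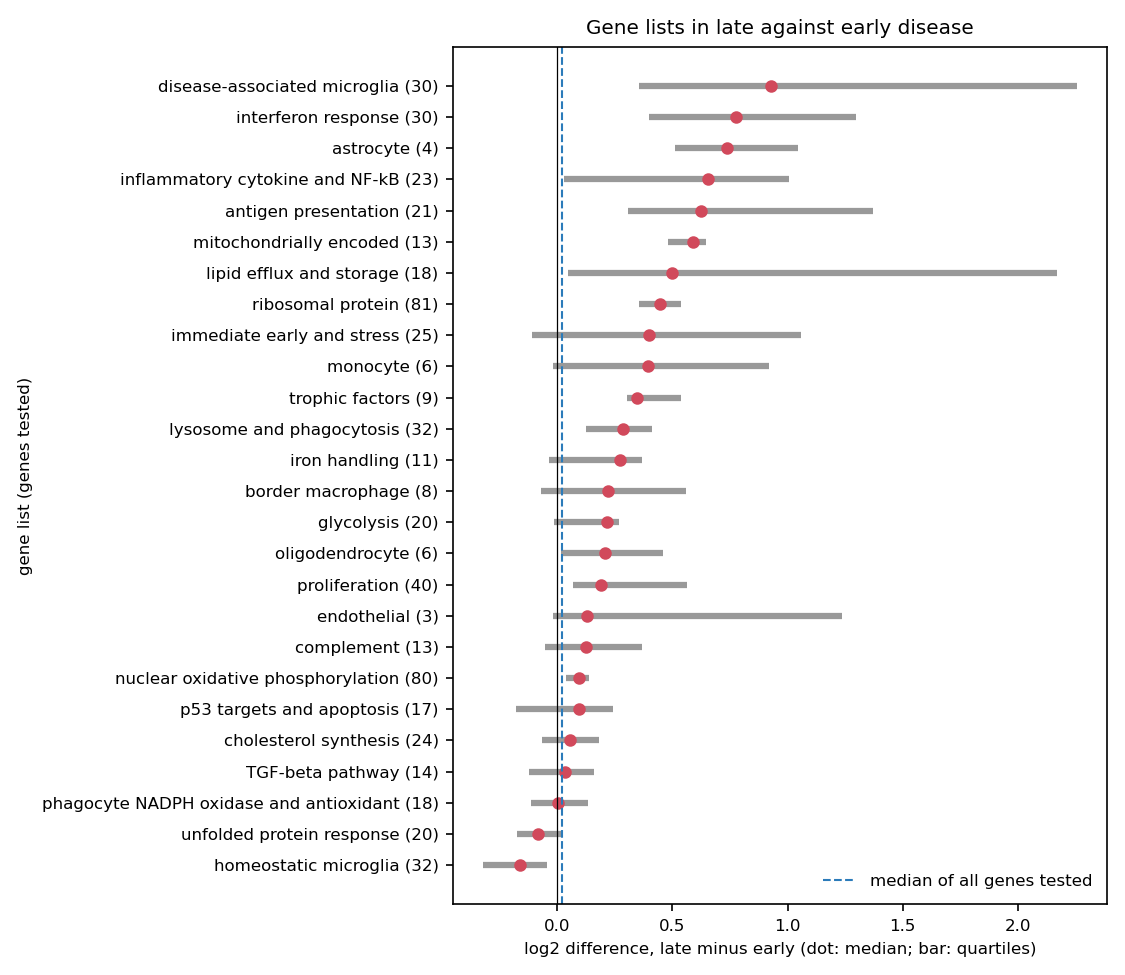
Median (dot) and quartiles (bar) of the log2 difference, late minus early, for each gene list with at least 3 tested genes, with the number tested in brackets and the median of all 12411 genes as a dashed line. The disease-associated list has the highest median, 0.93, and the homeostatic list the lowest, -0.16.

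Proliferation genes did not pass the test, and their difference changed sign between date codes. Of 40 tested, 0 passed by edgeR or DESeq2 and 0 had an unadjusted p under 0.05, and the median was 0.19, or from -0.028 (without early replicate 8) to 0.55 (without late replicate 1). In codes 1019 and 1102 alone the median was -0.58. Mki67 had 0.95, 3.59 and 14.3 CPM in late and 1.11, 3.38 and 8.80 CPM in early libraries, and Top2a 0.74, 6.37 and 15.5 CPM in late and 0.60, 3.81 and 15.6 CPM in early libraries, with the groups overlapping over nearly their whole range. The late-minus-early difference in the list's mean log2 CPM was -1.68 within code 1019, 0.26 within 1102 and 1.32 within 1130. Tardbp, the mouse gene of TDP-43, had 36.4, 45.0 and 151 CPM in late and 42.2, 48.5 and 58.6 CPM in early libraries. Late replicate 1 held the 151 CPM, and the log2 difference was 0.21 ± 0.25 (adjusted p = 0.718) with it and -0.14 without it. The unfolded protein response list had 20 tested genes, a median of -0.08, 0 past edgeR or DESeq2, and 1 lower and 0 higher at an unadjusted p under 0.05. Of all genes, 5.61% were lower at that p.

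Differences within each date code were taken as a description, since a code holds 1 to 3 libraries of a stage. The 24 genes were chosen by a fit on these same libraries, so their agreement in sign within codes is in part set by that choice. These differences also carry no sex term. Of the 24 genes past the test, 20 had the same sign within all 3 codes, and the share over all genes was not computed. The exceptions were Csf1 (-0.12 in 1019, 1.96 in 1102 and 1.73 in 1130), Ildr2 (1.46, 2.39 and -0.22), Akr1e1 (0.32, -3.49 and -1.55) and Naip6 (2.16, 5.07 and -0.46). Code 1019, with 1 late and 2 early mice, gave the smaller differences for several of the largest changes: Spp1 differed by 1.08 there, against 3.95 in 1102 and 4.40 in 1130, and Apoe by 0.73, against 4.09 and 3.28. Fn1 and H2-Q7 did not share this order, with 6.09 and 3.08 in code 1019. The disease-associated list differed by -0.08, 1.64 and 1.42 in the 3 codes, and the lipid efflux and storage list by -0.13, 1.39 and 1.20. Antigen presentation differed by 0.88, 0.89 and 0.97, interferon response by 0.67, 0.79 and 1.14, and the homeostatic list by -0.38, -0.02 and -0.25. In codes 1019 and 1102 alone, list medians of the log2 difference in the fit were 0.23 for lipid efflux and storage, 0.099 for lysosome and phagocytosis, 0.28 for inflammatory cytokines, 0.24 for ribosomal proteins, 0.30 for mitochondrially encoded genes, 0.66 for antigen presentation and -0.20 for homeostatic genes.

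**Figure D4:**
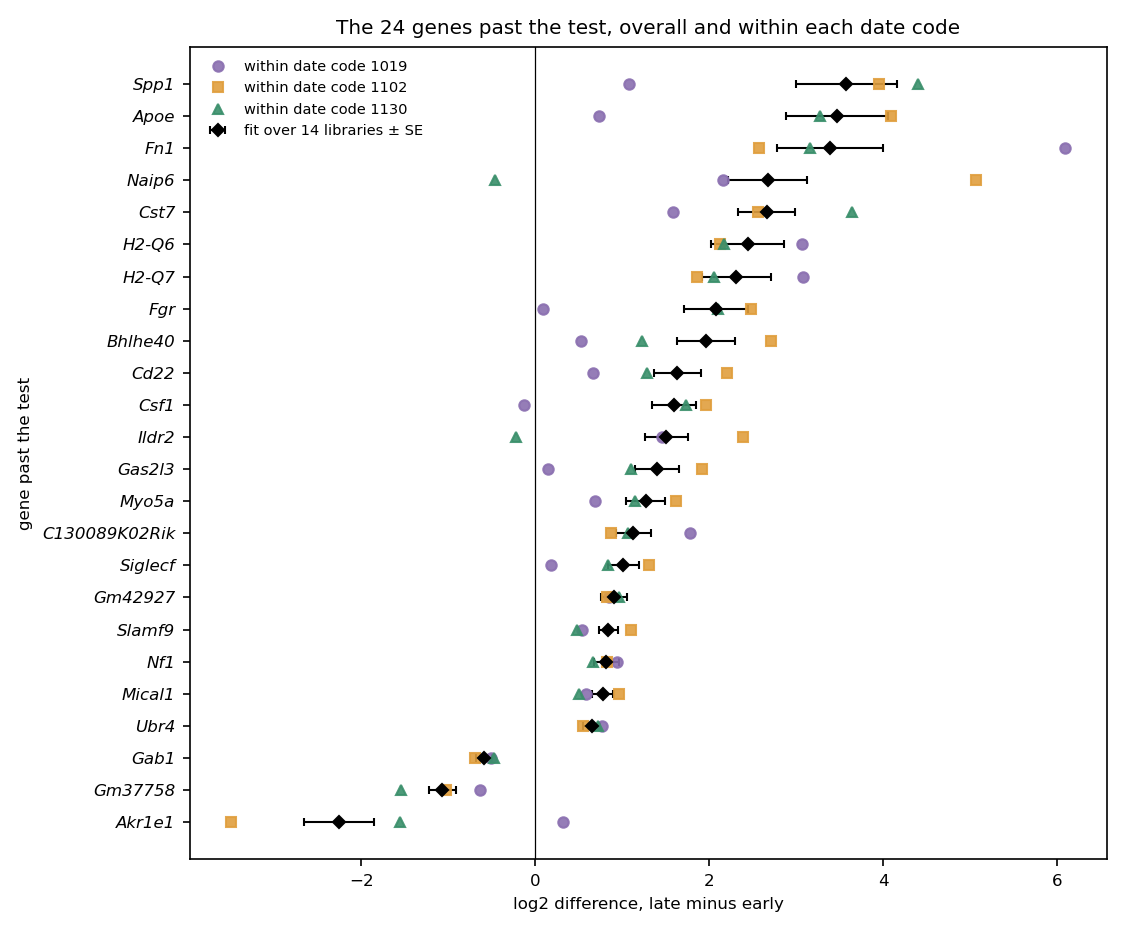
Log2 difference, late minus early, for the 24 genes past the test: the fit over 14 libraries ± SE (black diamonds) and the difference of mean log2 CPM within date codes 1019, 1102 and 1130 (coloured markers). Spp1 and Apoe have their smallest difference in code 1019, and Csf1, Ildr2, Akr1e1 and Naip6 change sign in 1 code.

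Marker lists of other cells that a CD11b and CD45 gate or its myelin removal could let through were measured in the same libraries. Of 14 monocyte markers 6 were tested, 1 rose (Fn1), and Itga4 and Ms4a4c were higher at an unadjusted p under 0.05. Of all genes tested, 0.169% rose and 9.09% were higher at that p. The monocyte receptor gene Ccr2 had means of 1.38 CPM in late and 2.40 CPM in early libraries, and Ly6c2 0.16 and 0.38 CPM. The summed level of the 14 markers was 38.4 to 175 CPM in late and 14.9 to 45.6 CPM in early libraries, with the highest sum in late replicate 6. Fn1 is part of this sum and held 120 CPM of it in late replicate 6. The median sum was 45.45 CPM in late and 23.5 CPM in early libraries, and the median of Fn1 alone 20.5 and 2.76 CPM. The part of monocytes in the Fn1 result was not tested. Of 14 border macrophage markers 8 were tested, 0 passed, and Ms4a7 was higher at an unadjusted p under 0.05. Their sum was 182 to 792 CPM in late and 185 to 374 CPM in early libraries. The mannose receptor gene Mrc1 had means of 1.96 and 3.36 CPM. Of the neutrophil list 2 of 15 genes were tested, S100a8 and Csf3r, and Csf3r had a log2 difference of 0.38 ± 0.10 (adjusted p = 0.159).

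None of 15 T and NK cell, 10 mural and fibroblast and 7 erythroid markers reached the count filter. Cd3e, Cd3g, Gzma, Gzmb, Pax5, Mpo, Cldn11, Chat, Dcn and Col3a1 had 0 counts in all 14 libraries. In the oligodendrocyte precursor list, Cspg4 alone was tested, with all 7 late libraries above all 7 early ones at means of 4.46 and 0.49 CPM and a log2 difference of 3.34 ± 1.01 (adjusted p = 0.188). The oligodendrocyte list had 6 tested genes, 0 past the test and a median of 0.21, the astrocyte list 4, with 2 higher at an unadjusted p under 0.05 (Gfap and Aldoc), and the endothelial list 3, with 1 (Flt1). The share of all genes higher at that p was 9.09%. The part of these cells in the other results was not tested.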

How the data were processed

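RNA of sorted spinal cord microglia was sequenced as low-input SMART-Seq and Nextera XT paired-end libraries, per the labels' protocols. The deposited table of 35 libraries holds expected counts for 45706 genes (84.67% of values whole within 1e-6), which were rounded. The authors also deposited TPM values and a design table with an alignment count per library, used to check the date codes (35 of 35 matched). RSEM, DESeq2 and mm10 are named per the submitters' processing notes; their versions and the gene annotation were in none of the sources used here. Gene IDs matched symbols for 45143 genes; unmatched IDs took 0.146% of a library's counts at most.

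The comparison used edgeR 4.0.16 (R 4.3.3): TMM factors over 35 libraries, filterByExpr by stage, and a quasi-likelihood F test of late against early with date code and sex as terms, over 12411 genes, with Benjamini-Hochberg adjustment at 0.05. SEs came from the F statistic. CPM used the TMM-scaled library size, and log2 CPM a prior count of 0.5. DESeq2 1.42.0, limma 3.58.1 on log2 of TPM plus 1 or 0.1, other scalings, filters and terms, and fits without each library were alternatives. The fits over 33 libraries were added after the data were seen. Named genes were the 12 with the smallest p in each direction among genes with an adjusted p under 0.05 and a mean of at least 5 CPM, a fixed panel (less 1 gene that is not reported here), up to 4 members past the test of each list, and all genes of a direction with 12 or fewer. The comparison, the panel and the 33 gene lists (21 of states, 12 of other cells) were chosen with earlier results of these data known.

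Libraries held 15.1 to 20.0 M counts; at this depth genes of a few CPM have few reads, and the precision of each difference is given as its SE over the replicates. Promoters came from RefSeq, GRCm38.p6. Recovery libraries entered the TMM factors and the fits over all 35 or 33 libraries, and no comparison of them was made.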

Additional observations from a re-analysis of the deposited data

Results flagged for a closer look

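In 20 of 154 groups of 7 values, 1 library stood far from the other 6 of its stage, by Dixon's gap over range above 0.568. Chance flags about 1 in 20 groups, or 5%, and genes of a library are not independent. Late replicate 6 gave 8 of the 20. Its CPM was 11135 for Apoe and 120 for Fn1, above the other late libraries, and 1708 for P2ry12, 1171 for Cx3cr1 and 142 for Sall1, below them. Its mean log2 CPM was 6.88 for ribosomal protein genes and 5.69 for immediate early and stress genes, above the others, and 4.63 for the inflammatory cytokine and NF-kB list, below them.

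Late replicate 1 stood highest for Tardbp, at 151 CPM, and for Naip6, at 47.8 CPM, and lowest for the lysosome and phagocytosis list, at 9.33. Late replicate 3 stood highest for Mical1, at 79.2 CPM. In early disease, replicate 3 stood highest for Siglecf (189 CPM), Cxcl10 (18.7), Isg15 (13.6) and Gpnmb (4.76), replicate 4 for Gm37758 (42.2 CPM), H2-Q6 (26.0) and C3 (9.28), and replicate 1 for Tyrobp, at 1338 CPM. No explanation of these libraries was tested.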

How the results depend on the processing

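The 24 genes kept their direction in all 18 other settings and 14 fits without 1 library, but the number past the threshold moved in most of them. Since these fits reuse the libraries that chose the 24 genes, the kept direction is in part set by that choice. Genes higher and lower in late disease were 274 and 117 by DESeq2, 66 and 5 with no filter on low counts, 73 and 12 over all 35 libraries with date code and sex, 81 and 19 over them with sex alone, 88 and 23 or 88 and 27 in those fits without the 2 controls whose sex label did not match, and 8 and 6 in date codes 1019 and 1102. They were 13 and 3 without date code, 2 and 2 without sex, 0 and 0 without either (2058 at an unadjusted p under 0.05), and 1 and 0 with the TPM share outside the count table (2.3 to 5.5% of a library's TPM) as a term. By limma they were 7 and 4 with TPM plus 1 or plus 0.1, and 2 and 1 with no filter. Without 1 library at a time they were 0 to 69 and 0 to 23. RLE factors, TMM over 14 libraries and a filter of 1 CPM each gave 21 and 3. The share higher among genes past the test was 87.5%, against 70.1% by DESeq2 and 63.6% by limma. The cause of these moves was not tested.

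Replicate numbers do not pair the mice: over the 6 numbers that both stages share, correlations of same-numbered deviations ran from -0.0654 to 0.149, and only number 6 matched its own number best. With the replicate block (12 libraries) 0 genes were higher and 0 lower by edgeR, with 1517 at an unadjusted p under 0.05.

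List medians moved in codes 1019 and 1102 alone: disease-associated 0.36, immediate early -0.054, glycolysis -0.015, p53 targets -0.16 and iron handling -0.011. Without 1 library the p53 median ran from -0.087 to 0.20. The other list medians moved by less than the spread between libraries, which is wide for some lists. Several of them still changed sign in codes 1019 and 1102 alone. Among these, proliferation went from 0.19 to -0.58, monocyte from 0.40 to -0.086 and complement from 0.12 to -0.0098.

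Of the genes named, 4 that did not pass the test changed sign. Trem2 was -0.0080 without date code, -0.027 without date code and sex, -0.020 over 35 and -0.022 over 33 libraries with sex, -0.12 in codes 1019 and 1102, -0.058 in each limma fit, -0.00359 with the block and -0.055 to 0.12 without 1 library. Mki67 was -0.062 over 35 libraries with date code, -1.17 in codes 1019 and 1102, -0.30 with the block and -0.15 to 0.93 without 1 library. Top2a was -1.15 in those codes and -0.15 with the block. Tardbp was -0.26, -0.27 and -0.26 by limma and -0.14 to 0.31 without 1 library. At 15.1 to 20.0 M counts a library, genes below the count filter were not tested.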
